A study of Mus musculus with 4 samples.

Results

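Collagen chain genes were examined in cultured mouse myotubes. They were chosen by name, as the protein-coding genes whose symbol is Col, a number, the letter a and a number, and 44 of the 45777 genes in the deposited table met that rule. RNA sequencing covered 4 libraries of myotubes, the fused muscle fibres into which myoblasts of the mouse line C2C12 differentiate when serum is lowered, here to 2% horse serum. Each group held 1 library: myotubes under EPS (taken to mean electrical pulse stimulation, although the labels give the letters alone), an EPS control, myotubes given clenbuterol, an agonist of beta2-adrenergic receptors, and a clenbuterol control. The treatment field gives 30 ng/ml clenbuterol for every library, controls included, so groups were taken from the sample titles. For the EPS pair these titles conflict with the data names: the library titled EPS carries data named for the control, and the library titled EPS control carries data named for EPS. They are called here by their titles, and every direction within that pair turns round if the data names hold. With 1 library a group no difference could be tested, so all differences are described by size.

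Collagens are extracellular proteins whose chains wind into a triple helix, for which glycine must recur at a fixed step along the chain, the Gly-X-Y repeat. Fibrillar collagens form the load-bearing fibrils of connective tissue, type IV collagen the sheet of the basement membrane around each muscle fibre, and type VI collagen the beaded filaments that link that membrane to the surrounding matrix. The chains are hydroxylated and folded in the endoplasmic reticulum, trimmed after secretion and then crosslinked. In muscle tissue fibroblasts are the main source of this matrix, and muscle cells contribute to it.

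The repeat can be read in the genes themselves, so the exons of the most abundant fibrillar chains are shown first. In the GENCODE M21 annotation of GRCm38 (the same build as mm10), each of the 11 fibrillar chain genes had between 21 and 33 coding exons of exactly 54 bases, a length that holds whole Gly-X-Y repeats. For 7 chains the first of these exons in which the repeat runs from start to end without a break is given. It is written 5′ to 3′ on the coding strand. Capitals mark the glycine codon that opens each Gly-X-Y repeat (GGN, N being any base). Glycine codons elsewhere in a repeat stay in lower case. The exons lie at chr11:94939904-94939957 (Col1a1, coding exon 8 of 51), chr6:4515481-4515534 (Col1a2, 8 of 52), chr1:45325360-45325413 (Col3a1, 6 of 51) and chr2:27965251-27965304 (Col5a1, 15 of 66). The others lie at chr1:45434892-45434945 on the minus strand (Col5a2, 6 of 54), chr9:20801068-20801121 on the minus strand (Col5a3, 15 of 67) and chr3:114108281-114108334 (Col11a1, 15 of 67).
Col1a1: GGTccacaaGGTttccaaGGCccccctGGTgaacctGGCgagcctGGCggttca
Col1a2: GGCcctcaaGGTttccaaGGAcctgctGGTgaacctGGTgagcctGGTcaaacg
Col3a1: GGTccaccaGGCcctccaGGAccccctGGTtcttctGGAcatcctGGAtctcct
Col5a1: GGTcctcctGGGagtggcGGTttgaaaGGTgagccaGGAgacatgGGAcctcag
Col5a2: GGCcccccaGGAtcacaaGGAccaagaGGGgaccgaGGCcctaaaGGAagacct
Col5a3: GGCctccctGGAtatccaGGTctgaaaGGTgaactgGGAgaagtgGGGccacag
Col11a1: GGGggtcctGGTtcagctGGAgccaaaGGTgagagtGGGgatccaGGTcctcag

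Exons of this unbroken form were 21 of 21 exons of 54 bases in Col1a1, 23 of 24 in Col1a2 and 24 of 24 in Col3a1. The longest unbroken run of such repeats held 338 triplets in Col1a1, 339 in Col1a2 and 344 in Col3a1. Among all 11 fibrillar genes the run was 216 to 344 triplets, shortest in Col24a1 and Col27a1.

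Outside the fibrillar class such exons were few, except in part of the FACIT class. Exons of 54 bases numbered 2 or 3 in the 6 beaded filament genes, 1 to 3 in the 6 basement membrane genes and 0 in the 3 short-chain genes, whose runs were 60 or 61 triplets. The 9 FACIT genes, whose proteins sit on the surface of fibrils, ranged from 4 exons of 54 bases in Col12a1, Col14a1 and Col20a1 to 28 in Col22a1. Col22a1 thus lay within the fibrillar range, and Col9a1, Col9a2 and Col9a3 had 14 each, Col19a1 15 and Col16a1 12. Of 22423 annotated genes only 18 had at least 10 coding exons of this length, and 17 of these were collagen members. The remaining one was the predicted gene Gm11639.

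**Figure D1:**
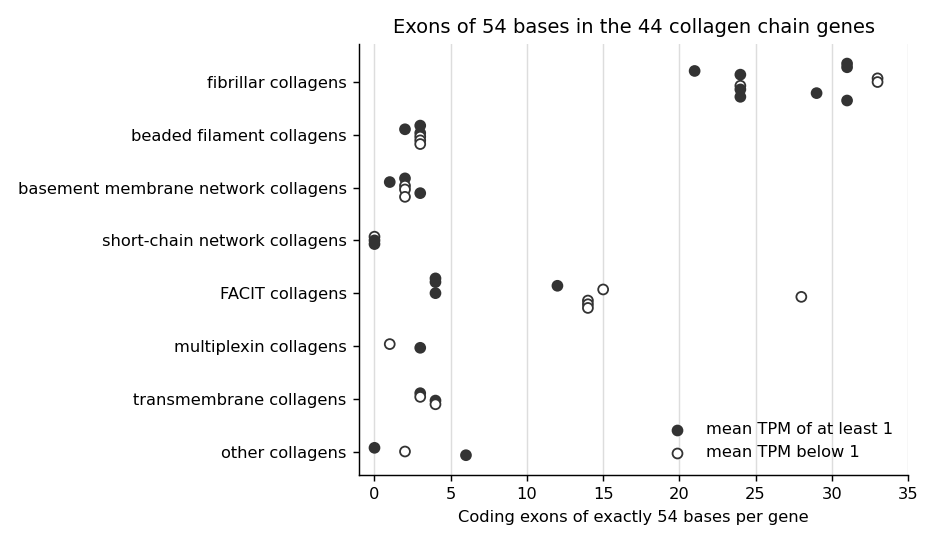
Number of coding exons of exactly 54 bases (horizontal axis) in each of the 44 collagen chain genes, grouped by class. Filled points are genes with a mean TPM of at least 1 over the 4 libraries and open points the rest; the fibrillar class lies at 21 to 33 and the short-chain class at 0.

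Library depth was similar throughout. Estimated counts summed to 32640884 to 35597074 per library, and a count of 0 allows up to 0.0843 to 0.0919 CPM (counts scaled to a common library size). All 15 myotube marker genes reached 1 TPM (a transcript level corrected for gene length and scaled to a common total) somewhere. Of 12 fibroblast markers 8 reached 1 TPM, among them Ly6a (258 to 415 TPM), Dcn (209.9 to 231) and Fbln1 (6.99 to 10.1). The fibroblast markers Thy1, Tcf21 and Col15a1 were listed at 0 in every library, as were Ptprc, Adgre1 and Cd3e among markers of immune cells. Cd68, another immune marker, was present at 2.79 to 4.88 TPM. Collagen chains took 2.19%, 2.27%, 1.45% and 1.36% of all counts in the libraries titled EPS, titled EPS control, clenbuterol and clenbuterol control. Values of the 4 libraries are given in that order from here on.

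Of the 44 chains, 19 peaked at a TPM of 5 or more, 8 peaked between 1 and 5, and 13 lay above 0 but below 1. Another 4 chains, Col15a1, Col9a1, Col9a2 and Col6a6, were listed at 0 in all 4 libraries. The 27 chains at 1 or more in at least 1 library are called measured below. They were led by fibrillar chains: Col3a1, Col1a2 and Col1a1 made up 61.5% to 63.9% of the summed collagen TPM, and with Col5a2 and Col5a1 the share was 81.4% to 84.0%. These 5 stood in the same order in every library.

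Col3a1, the single chain of type III collagen, had TPM values of 2429.6, 3029, 1896 and 1764. Col1a2 had 1468, 1425, 880.5 and 788, and Col1a1 had 1198, 1164, 642 and 573. For all 3 genes both libraries of the EPS pair lay above both libraries of the clenbuterol pair. Type I collagen is a heterotrimer with more of the chain from Col1a1 than from Col1a2, yet the Col1a1 to Col1a2 ratio of TPM was below 1 everywhere, at 0.816, 0.816, 0.729 and 0.727. The ratio of Col3a1 to Col1a1 ran from 2.03 in titled EPS to 3.08 in the clenbuterol control.

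Type V collagen chains, which copolymerise with type I and limit fibril width, came next. Col5a2 had TPM values of 927, 907, 589 and 572, and Col5a1 had 820.4, 824, 475 and 442. The third chain, Col5a3, was lower at 87.4, 108, 53.3 and 49.8. Col11a1, a related minor fibrillar chain, had 8.08, 6.26, 4.50 and 3.44. All 4 were higher in both libraries of the EPS pair than in either of the clenbuterol pair. Fibrillar chains of cartilage and development were scarce: Col11a2 ran from 1.18 to 1.49 and Col27a1 from 0.718 to 1.16, and Col2a1, the main cartilage chain, had at most 8 counts in any library.

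Among beaded filament chains Col6a1 had TPM values of 238, 256, 183 and 168, and Col6a2 had 113, 116, 97.0 and 84.7. Col6a3, the long chain that joins them in the type VI monomer, had 91.4, 111, 39.7 and 37.8. Col6a3 differed far more between the pairs than its partner chains did. Its ratio to Col6a2 was 0.806, 0.956, 0.409 and 0.446, whereas Col6a1 over Col6a2 stayed between 1.88 and 2.20. The alternative chains Col6a4, Col6a5 and Col6a6 had at most 12 counts in any library.

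Type IV collagen was represented by Col4a1 and Col4a2, the chains found in every basement membrane. Col4a1 had TPM values of 115, 165, 120.3 and 118, and Col4a2 had 125, 171, 119 and 118. In both genes the library titled EPS control stood above the other 3, which lay close together. Their ratio was 0.923 to 1.01 in all libraries. The genes lie head to head on mm10 chromosome 8, Col4a1 at 11198423 to 11312889 on the minus strand and Col4a2 at 11312805 to 11449287 on the plus strand, so their deposited intervals overlap by 85 bases. Reads in that stretch can be told apart by strand only, and the sources used here do not say whether the counting used it. Col4a5, on the X chromosome, had 14.3, 11.8, 12.3 and 11.4, while Col4a3, Col4a4 and Col4a6 had at most 5 counts each.

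The network-forming short chains Col8a1 and Col8a2 were highest in titled EPS. Col8a1 had TPM values of 166, 127, 104 and 97.6, and Col8a2 had 25.6, 18.0, 10.2 and 8.67. Col8a1 exceeded Col8a2 by 6.50 to 11.2 times. Col10a1, the growth plate chain, had at most 50 counts and overlaps Nt5dc1 on the opposite strand, which had 496 to 596, so its value is uncertain.

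Of the FACIT chains Col12a1, which decorates fibrils under tension, was most abundant, at 207, 246, 194 and 179 TPM. Col16a1 had 23.0, 25.0, 13.5 and 12.2. Col14a1 and Col20a1 lay between 1.45 and 4.18. Col18a1, the basement membrane collagen from which endostatin is cut, had 68.4, 69.8, 36.1 and 34.0, nearly equal within each pair and far apart between the pairs. Its only class mate, Col15a1, was listed at 0.

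Col13a1, a transmembrane collagen of the neuromuscular junction, had the reverse order, at 2.54, 1.94, 4.95 and 5.36 TPM. Both clenbuterol-pair libraries lay above both EPS-pair libraries. Col7a1 (2.71 to 4.03) and Col26a1 (0.627 to 1.76) were also higher in the clenbuterol pair, whereas Col23a1 was 2.01 in titled EPS and 1.12 to 1.29 elsewhere. Below 1 TPM the transmembrane chain Col25a1, picked out once its values were known, had 66, 8, 83 and 71 counts, so that the library titled EPS control was apart from the other 3.

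**Figure D2:**
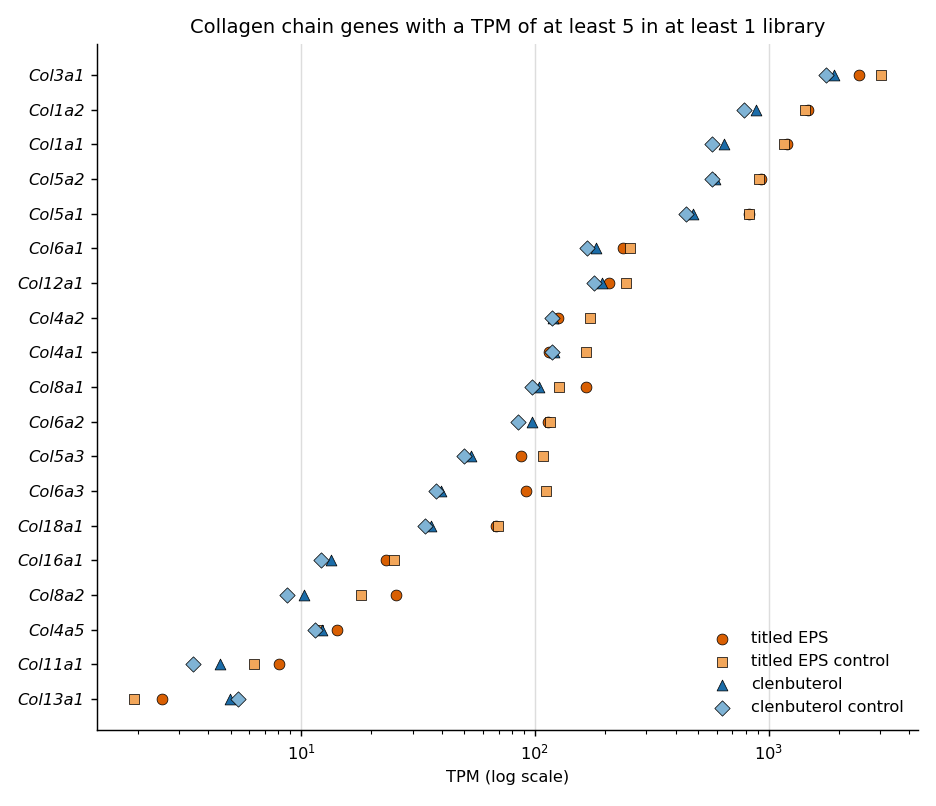
TPM on a log axis of the 19 collagen chain genes that reached 5 TPM in any library, ordered by mean TPM. Each point is 1 library (orange for the EPS pair by title, blue for the clenbuterol pair). For all fibrillar chains shown the orange points lie right of the blue ones, for Col13a1 left of them.

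By class, fibrillar chains supplied 85.2%, 84.9%, 82.7% and 82.5% of the collagen TPM. Beaded filament chains supplied 5.43% to 5.81%, basement membrane chains 3.13% to 4.87%, FACIT chains 2.90% to 3.90% and short-chain collagens 1.66% to 2.36%. Multiplexin, transmembrane and other chains each stayed below 1%. These shares moved by a few percentage points among libraries whose summed collagen TPM ranged from 5086 in the clenbuterol control to 8799 in titled EPS control.

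Clenbuterol was compared with its control to ask how a drug used as an exercise mimic bears on these genes. Most chains lay slightly higher. Of 25 measured members 23 were higher by any amount, against 46.4% of all 13788 genes measured in that pair, and the 2 lower ones were Col11a2 and Col13a1. No chain differed by 1.3-fold in TPM plus 1 (the log2 ratio of TPM with 1 added), while 4.64% of all genes were at least 1.3-fold higher and 4.85% lower. In CPM with TMM factors 1 chain did. No chain differed by 2-fold either, against 1% higher and 0.515% lower among all genes. The median log2 ratio of the 25 was 0.10, beside −0.01 over all genes.

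Among single chains the highest ratio with clenbuterol was that of Col11a1, at 0.31 on the log2 scale. Its counts were 498 and 386, a 1.33-fold difference in CPM with a 95% counting interval (exact Clopper-Pearson) of 1.16 to 1.52. Such intervals cover counting error only and say nothing of culture-to-culture spread, and they are too narrow if both mates of a read pair were counted. Col1a1 was 1.14-fold higher in CPM (1.12 to 1.15), Col3a1 1.09-fold (1.08 to 1.10) and Col8a1 1.08-fold (1.05 to 1.12). Col4a1 and Col4a2 were nearly level, with log2 ratios of 0.02 and 0.02. Col13a1, at −0.10, had a CPM interval that included no difference (0.739 to 1.04 fold).

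The machinery around the chains stayed inside the same limit with clenbuterol. None of 52 measured genes in 6 lists of collagen making and binding differed by 1.3-fold in TPM plus 1. Of all genes 4.64% were at least that much higher and 4.85% lower. Log2 ratios in the lists ran from −0.17 for Lox, the crosslinking lysyl oxidase, to 0.24 for Thbs2, a matrix thrombospondin. P4ha1, the catalytic subunit of prolyl hydroxylase, was at 0.13 and P3h1 at 0.13, Sec24d, a coat protein of secretory vesicles, at 0.19, and the collagen transcription factor Creb3l1 at −0.09. Sox9, which drives cartilage collagen genes, had TPM values of 85.8 with clenbuterol and 32.6 in the control. Among chains of cartilage, Col2a1 had 8 and 0 counts in this pair, Col9a1 and Col9a2 had none, Col11a2 had 120 and 144, and Col11a1 had 498 and 386. Of 15 myotube markers 0 differed by 1.3-fold in the clenbuterol pair. Of 10 myoblast markers 3 were at least that much higher, Hey1, Id3 and Pax7, with summed TPM of 395 against 299.95. Of 7 measured fibroblast markers 1 was lower. So was Cd68, the 1 measured endothelial and immune marker, at 2.79 against 4.88 TPM. Sox9 was the 1 measured chondrocyte marker and was higher, and of 3 osteoblast and 2 tendon cell markers 0 passed. The shares of all genes given above apply to these marker counts too. The part of these markers in the collagen values was not tested.

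Within the EPS pair, read by title, chains differed in both directions and by more. Of 27 measured members 14 were higher and 13 lower in the library titled EPS, where 45.4% and 54.6% of all genes were, and the median log2 ratio was 0.03 beside −0.02 over all genes. At least 1.3-fold higher were 4 chains (Col14a1, Col8a2, Col23a1 and Col8a1), where 5.48% of all 13828 genes passed. By the same limit 3 were lower (Col4a1, Col4a2 and Col10a1), where 9.6% passed. The share of chains lower is near that of all genes, so these 3 are given as single values. No chain differed by 2-fold, against 0.868% higher and 1.14% lower among all genes. The number past 1.3-fold was 7 here, 3 with a pseudocount of 5 and 9 in CPM with TMM factors.

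The basement membrane pair had the lowest ratios of the abundant chains. Col4a1 was 1.40-fold lower in CPM in titled EPS (1.37 to 1.43), from 11904 counts against 15024, and Col4a2 was 1.34-fold lower (1.305 to 1.368), from 12583 against 15172. Col4a5 of the same class lay on the other side, 1.24-fold higher (1.14 to 1.34). For Col4a1 and Col4a2 the titled EPS control exceeded each of the other 3 libraries by 1.3-fold or more in TPM plus 1.

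The short-chain collagens Col8a1 and Col8a2 lay opposite to them, while Col10a1 of the same class was 1.85-fold lower (1.15 to 3.01). The Col10a1 value rests on 30 counts against 50 and is uncertain, since the gene overlaps Nt5dc1. Col8a1 was 1.34-fold higher in CPM in titled EPS (1.31 to 1.38) and Col8a2 1.46-fold higher (1.35 to 1.57), and here titled EPS exceeded each of the other 3 libraries by 1.3-fold or more. The same held for Col23a1, 1.61-fold higher (1.25 to 2.07). Col14a1, which binds fibril surfaces, was 1.73-fold higher (1.40 to 2.16), but for it the titled EPS control lay 1.3-fold or more under the other 3.

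Of the fibrillar chains none passed 1.3-fold in this pair. Col3a1 had a log2 ratio of −0.32 and Col5a3 of −0.31, while Col11a1 had 0.32. Col1a1, Col1a2, Col5a1 and Col5a2 lay between −0.01 and 0.04. Types I and III often share fibrils, and within the pair their chains differed in direction, though all stayed short of 1.3-fold. Col3a1 was 1.22-fold lower in CPM (1.21 to 1.22) and Col1a1 1.06-fold higher (1.05 to 1.07).

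Among the 54 measured pathway genes 3 were at least 1.3-fold higher by title and 2 lower. These shares are near or below those of all genes, 5.48% and 9.6%, so the genes are given as single values. Ogn, a small leucine-rich proteoglycan that binds fibrils, was higher at 0.90 on the log2 scale, with a TPM of 329 against 176. Thbs2 was higher at 0.62, with 182 against 118. Tll1, a procollagen processing protease, was higher at 0.39 but weakly expressed, at a TPM of 1.18 against 0.666. Ddr1, a collagen receptor kinase, was lower at −0.39, with 66.7 against 87.9, and the prolyl 3-hydroxylase gene P3h2 was lower at −0.80, with a TPM of 0.868 against 2.26. Tll1 and P3h2 lie below the level set for naming and were picked from their values.

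Values just short of the limit in the same pair were −0.37 for Fn1, the fibronectin gene on whose fibrils collagen assembles, −0.36 for Lox and 0.35 for Mrc2, the endocytic collagen receptor. Plod2, the lysyl hydroxylase of the telopeptides, was at 0.29. Muscle markers also differed within the pair: 8 of 15 myotube genes were at least 1.3-fold lower in titled EPS and 0 higher, with summed TPM of 21387 against 25750. In bulk RNA fewer cells of a type and less RNA per cell cannot be told apart. By the same limit 2 of 4 measured tendon cell markers were higher and 2 of 7 fibroblast markers lower, with summed TPM of 426 against 321 and of 514 against 671. Of 9 measured myoblast markers 3 (Heyl, Id1 and Myf5) were higher and 1 (Pax7) lower, with summed TPM of 301 against 258. Of 3 osteoblast markers 1 was higher, as was the 1 measured endothelial and immune marker, and of 2 chondrocyte markers 0 passed. The part of these markers in the collagen differences was not tested.

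**Figure D3:**
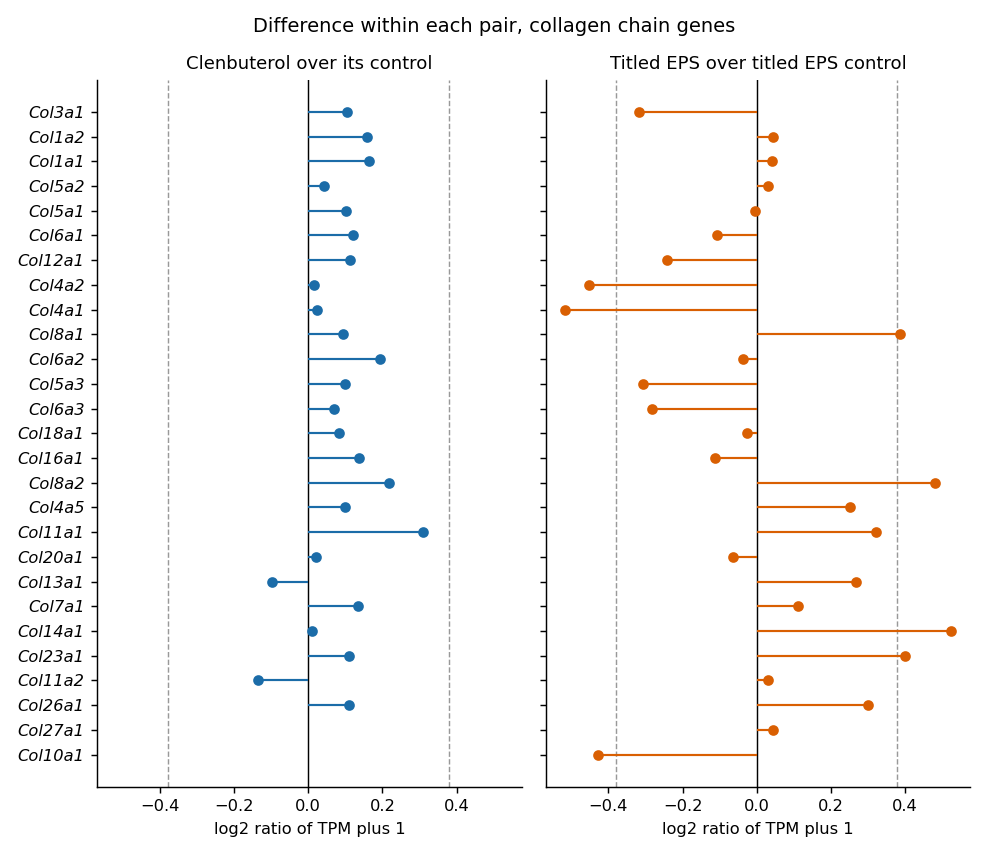
Log2 ratio of TPM plus 1 of each measured collagen chain gene, clenbuterol over its control (left) and titled EPS over titled EPS control (right), genes ordered by mean TPM; dashed lines mark 1.3-fold. All blue points stay inside the lines, while Col4a1, Col4a2 and Col10a1 lie beyond the left line and Col14a1, Col8a2, Col23a1 and Col8a1 beyond the right line.

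The larger contrast lay between the pairs. Comparing the 2 controls by title, 16 of 27 measured chains were at least 1.3-fold higher in the EPS control and 3 lower (Col13a1, Col26a1 and Col14a1), while 15.5% and 9.68% of all 13880 genes passed those limits. At 2-fold, 4 chains were higher and 1 lower, against 1.85% and 1.3% of all genes. The median log2 ratio of the chains was 0.48, beside 0.04 over all genes. With the data names in place of the titles 15 chains were higher and 1 lower of 26.

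A measure that does not depend on the titles is the gap between pairs: the lower EPS-pair library over the higher clenbuterol-pair library, or the reverse. It was added after the data were seen. Of 27 measured chains 18 were higher in both EPS-pair libraries than in both clenbuterol-pair libraries and 4 lower in both, where 34.7% and 25.1% of 14213 genes were. By at least 1.3-fold 10 chains were higher, against 5.31% of all genes, and 1 was lower, against 3.83%. Only Col6a3 passed 2-fold, as did 0.352% of all genes. The pairs may also differ in culture, date or batch, none of which the labels give, so these cannot be told apart from each other.

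The gap was widest for Col6a3, at 2.27-fold in TPM plus 1. Col18a1 followed at 1.87, Col1a1 at 1.81, Col5a1 at 1.73, Col8a2 at 1.69, Col16a1 at 1.66, Col5a3 at 1.63, Col1a2 at 1.62, Col5a2 at 1.54 and Col11a1 at 1.32. Thus 6 of 9 measured fibrillar chains passed. Col3a1, the most abundant of all, did not, at 1.28-fold, since titled EPS lay closer to the clenbuterol pair. Col6a1 stopped just short of the limit, with a gap of 0.38 on the log2 scale. Col4a1, Col4a5, Col14a1, Col23a1 and Col10a1 had no gap, because the values of the pairs overlapped. The 4 chains with a gap the other way were lower in the EPS pair by 1.68-fold for Col13a1, which alone passed 1.3-fold, 1.28-fold for Col26a1, and 1.14-fold for both Col20a1 and Col7a1.

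**Figure D4:**
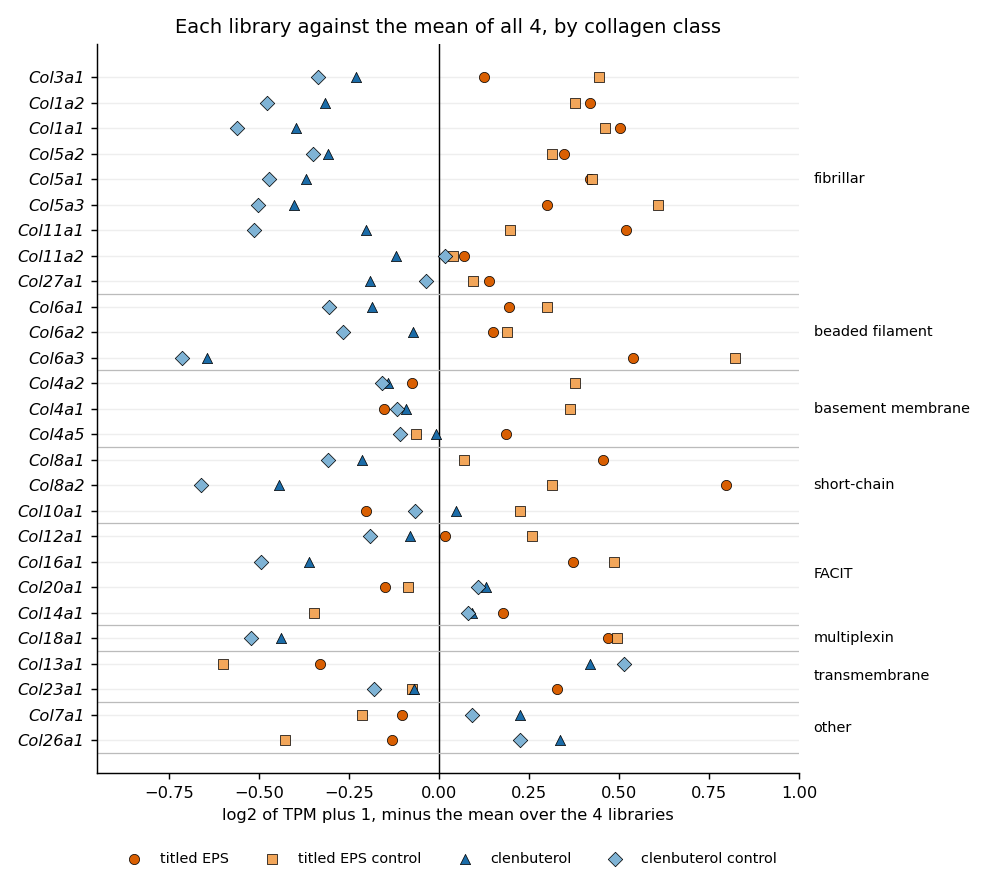
Log2 of TPM plus 1 in each library minus the mean over the 4 libraries, for the 27 measured collagen chain genes grouped by class. Orange points (EPS pair by title) lie right of blue points (clenbuterol pair) for all 9 fibrillar chains, overlap with them for Col4a1, Col4a5, Col10a1, Col14a1 and Col23a1, and lie left of them for Col13a1, Col20a1, Col7a1 and Col26a1.

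Genes that act on collagen were split between the pairs as well. Of 54 measured pathway genes 14 had a gap of at least 1.3-fold with the EPS pair higher and 1 with it lower, against 5.31% and 3.83% of all genes. Hydroxylation genes supplied 6 of 14: P4ha2 at 1.91-fold, Plod2 at 1.85, P4ha3 at 1.74, P4ha1 at 1.66, Plod3 at 1.36 and P4hb at 1.33. P4ha2 had TPM values of 226, 244, 118 and 118. Plod2 had 207, 169, 91.0 and 87.5. For both genes the EPS-pair values lay far above those of the clenbuterol pair, which were nearly equal to each other.

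Folding and secretion supplied 2 of 11, Creb3l1 at 1.50-fold and Serpinh1, the collagen chaperone HSP47, at 1.37, with Serpinh1 TPM values of 1353, 1305, 953 and 926. Crosslinking supplied 2 of 5, Lox at 1.53 and Loxl2 at 1.42, and Lox had TPM values of 703, 905, 406 and 458. Fibril partners supplied 3 of 12, the proteoglycan gene Bgn at 1.43, Postn (periostin) at 1.41 and Sparc, a collagen-binding matricellular protein, at 1.38. Of 6 receptor genes Ddr2, which binds fibrillar collagen, was higher at 1.39 and Itga10, an integrin chain, 1.77-fold lower. Procollagen processing genes passed in 0 of 6 cases. Gaps were 1.01-fold for Tll1, 1.11-fold for Bmp1, 1.11-fold for Pcolce, 1.13-fold for Adamts2 and 1.15-fold for Pcolce2, all higher in the EPS pair. Adamts14, with a gap of 1.18-fold, was lower there.

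Cell type markers differed between the pairs as well. Summed TPM of the 15 myotube genes was 21387, 25750, 31504 and 31527, and 5 of them (Myog, Myh1, Myh8, Mylpf and Mymk) had a gap of at least 1.3-fold with the EPS pair lower. The proliferation gene Mki67 had 49.4, 45.6, 29.1 and 31.9. Of the 10 myoblast genes 2, Mki67 and Top2a, were higher in the EPS pair by that measure and 4, Id1, Id3, Hey1 and Heyl, lower. Of the 12 fibroblast markers 2 were higher and 1 lower, and their summed TPM was 514, 671, 553 and 541, without a split between the pairs. That list holds 1 collagen member, Col15a1. Of 6 tendon cell markers 4 reached 1 TPM and 1, Tnmd, was higher in the EPS pair. Chondrocyte, osteoblast, and endothelial and immune markers reached 1 TPM in 2 of 10, 3 of 8 and 1 of 10 cases, and 0 had such a gap. The part of these markers in the collagen gap was not tested.

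Promoters of the members were read for motifs as a description. RefSeq start sites of GRCm38.p6 gave a window of 250 bases upstream for 35 of the 44 members (38 windows). Matches were taken on either strand and at any position in the window. The TATA box sequence TATAAA matched in 13.2% of member windows and 12.4% of all 32851 windows. For the CCAAT box sequence CCAAT the shares were 34.2% and 33.8%, and for the GC box sequence GGGCGG 57.9% and 32.7%. The member shares pool all members with a window and were not split by class or by the gap. No motif overlapped another in the windows printed here. Those of Col1a2 (chr6:4505368-4505617, plus strand), the most abundant type I chain, and of Col3a1 (chr1:45311288-45311537, plus strand), the type III chain, are shown. They run 5′ to 3′ and end just before the start site, with capitals on the motif matches.
Col1a2: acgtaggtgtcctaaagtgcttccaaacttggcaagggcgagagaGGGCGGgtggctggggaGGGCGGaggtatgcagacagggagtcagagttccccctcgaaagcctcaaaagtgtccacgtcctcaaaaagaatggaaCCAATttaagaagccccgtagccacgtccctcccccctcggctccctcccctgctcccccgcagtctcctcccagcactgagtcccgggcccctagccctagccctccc
Col3a1: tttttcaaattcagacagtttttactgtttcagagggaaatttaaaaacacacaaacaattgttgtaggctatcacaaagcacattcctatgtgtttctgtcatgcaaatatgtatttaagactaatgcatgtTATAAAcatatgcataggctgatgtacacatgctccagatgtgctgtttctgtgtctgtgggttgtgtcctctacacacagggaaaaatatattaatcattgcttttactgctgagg

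The Col1a2 window held 2 GGGCGG matches, 1 CCAAT match and no TATAAA match. That of Col3a1 held 1 TATAAA match and neither of the others. The window of Col6a3, the chain with the widest gap, held 0 of each and is not printed because its end lies inside the deposited gene interval. A match describes letters only, at any position of the window, and names no bound factor. Any link between the motifs and the gap was not tested. Col3a1 and Col5a2 also lie tail to tail on chromosome 1, 24624 bases apart, with gaps of 1.28-fold and 1.54-fold, and Col6a2 and Col6a1 lie 85161 bases apart on chromosome 10. Col6a3 lies apart from them on chromosome 1 at 90766860 to 90844001.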

How the data were processed

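Poly(A) RNA of 4 C2C12 myotube cultures was sequenced with a strand-specific TruSeq kit, per the labels' protocols. HISAT2 and the mm10 build are named per the submitters' processing notes. The program behind the deposited values, its annotation and any use of strand are not named by the sources used here. The authors deposited estimated counts, FPKM and TPM per gene for all libraries in 1 joint table. Single tables of each library, whose coverage signal was not used, gave another TPM (tolerance 0.001) for 1 to 3 genes each and for 0 collagen members.

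Log2 ratios of TPM were computed after adding 1, for every gene reaching 1 TPM in either library of a pair, and described at 1.3-fold and 2-fold. CPM came from the deposited estimated counts with TMM factors (edgeR 4.0.16 in R 4.3.3). DESeq2 1.42.0 size factors, FPKM, pseudocounts of 0.1 and 5 and other filters were alternatives. Counting intervals of CPM ratios were exact Clopper-Pearson intervals at 95% (Python 3.11.15, numpy 2.4.6, pandas 2.3.3, scipy 1.17.1). They were tried on counts simulated with counting error alone, as they assume, so coverage near 95% was fixed in advance. Figures used matplotlib 3.10.9. Named are members reaching 5 TPM in any library, the other measured ones in short, and the 2 highest and 2 lowest ratios of each pathway list in each pair, from which the text takes a selection. The 6 pathway lists held 68 genes of hydroxylation, folding, processing, crosslinking, fibril partners and receptors. Marker lists covered myotube, myoblast, fibroblast, chondrocyte, osteoblast, tendon, endothelial and immune cells. Members and lists were chosen with earlier results of these data known. Protein features were planned but not computed, and exon features replaced them.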

Additional observations from a re-analysis of the deposited data

How the results depend on the processing

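Read by title, the number of collagen chains at least 1.3-fold apart in the EPS pair was 7, and it was 3 with a pseudocount of 5, 4 in FPKM and 4 among chains with a TPM of at least 5, where fewer chains were counted. It was 8 with a pseudocount of 0.1, 8 without a filter and 9 in CPM under each of the 3 scalings. The median log2 ratio of that pair, 0.03, became −0.00296 without a filter, −0.0327 with a TPM of at least 5 and −0.0307 with the data names in place of the titles, so it has no firm sign. With clenbuterol the number at 1.3-fold was 0, and it was 1 with a pseudocount of 0.1, 1 in CPM with TMM factors and 1 in CPM with DESeq2 size factors. The number apart between the controls was 19 and ran from 16 to 22, and the number apart between the pairs was 11 and ran from 10 to 13. The exchange of titles and the count between the pairs were chosen after seeing the data. Of the ratios of the 19 most abundant chains under other units and pseudocounts, 114 of 114 kept their sign with clenbuterol. In the EPS pair 106 of 114 did and between the controls 113 of 114. A change of pseudocount cannot turn a sign, so part of each count was fixed in advance. Sizes were less stable: 10, 43 and 48 of 114 moved by more than their counting error. The largest shifts were 0.139, 0.239 and 0.536 on the log2 scale, in the same order. No paired analysis was possible because each group holds 1 library and the groups share fewer than 2 replicate numbers. Chains below 1 TPM had at most 83 counts, which limits what could be detected.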
